A study of Mus musculus with 18 samples.

Results

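Of the 47729 genes in the mouse colon count table, 10 were examined together as genes of fibroblasts and of activated stroma, the connective tissue that supports the epithelium. They were chosen by symbol, as genes other than collagens, and all 10 were found. They are *Pdgfra*, *Pdpn*, *Dcn*, *Lum*, *Fap*, *Postn*, *Thy1*, *Tnc*, *Fn1* and *Sparc*. RNA-Seq was performed on colon RNA of 9 mice in 3 groups of 3. Naive WT mice were wild-type and carried the treatment label Control. The protocol text attached to them also names AOM and DSS, so they are called naive on the treatment label alone. WT CAC mice were wild-type mice given azoxymethane (AOM), a carcinogen, once at 10 mg/kg, followed by dextran sulfate sodium (DSS) at 2.5%, an agent that injures the colon epithelium, in 3 cycles. This treatment produces colitis-associated cancer (CAC). The third group, *Cldn2*TG CAC, consisted of Villin-*Cldn2*TG animals that received the same agents. They overexpress *Cldn2*, which encodes a claudin of tight junctions, from the villin promoter, which drives expression in intestinal epithelium and not in fibroblasts. WT and transgenic animals shared the C57BL/6 strain, and the age of the sequenced mice and the part of the colon taken were not given in the sources used here. The labels number the libraries R1 to R9 and do not say that each is a separate animal; they are called mice 1 to 9 here, and p-values measure the spread between these samples. No group of transgenic mice without AOM/DSS was analysed here, so the effect of the transgene in the untreated colon cannot be told apart from its effect in CAC.

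Fibroblasts of the colon make the matrix of the lamina propria and submucosa and send growth signals to the crypts. *Pdgfra* encodes the PDGF receptor alpha, which marks fibroblasts and is most abundant in the subepithelial cells next to the crypts. *Pdpn* encodes podoplanin, a surface protein of fibroblasts and lymphatic vessels, and *Thy1* encodes CD90, a surface protein of fibroblasts, T cells and neurons. *Dcn* (decorin) and *Lum* (lumican) encode small leucine-rich proteoglycans that bind collagen fibrils and are abundant in resting fibroblasts. *Fap* encodes fibroblast activation protein, a membrane protease, while *Postn* (periostin) and *Tnc* (tenascin C) encode matricellular proteins that are known to increase in wound healing and in tumor stroma. *Fn1* (fibronectin) and *Sparc* (osteonectin) encode matrix proteins made by many cells, including endothelium and smooth muscle. In bulk tissue, fewer cells of a type and less RNA per cell cannot be told apart, and this holds for each difference given here.

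*Dcn* (ENSMUSG00000019929, 97479500 to 97518162) and *Lum* (ENSMUSG00000036446, 97565501 to 97572703) lie side by side on the plus strand of chromosome 10 in GRCm38, with 47338 bases between them. The activated genes lie on separate chromosomes. *Fap* (ENSMUSG00000000392) is on chromosome 2, from 62500943 to 62574075, *Postn* (ENSMUSG00000027750) on chromosome 3, from 54361109 to 54391037, and *Tnc* (ENSMUSG00000028364) on chromosome 4, from 63959785 to 64047015. *Pdgfra* (ENSMUSG00000029231) is on chromosome 5, from 75152292 to 75198215, *Pdpn* (ENSMUSG00000028583) on chromosome 4, from 143267431 to 143299564, and *Thy1* (ENSMUSG00000032011) on chromosome 9, from 44043384 to 44048579. *Fn1* (ENSMUSG00000026193) is on chromosome 1, from 71585520 to 71653200, and *Sparc* (ENSMUSG00000018593) on chromosome 11, from 55394500 to 55420080.

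Promoter sequences from RefSeq (GRCm38.p6) were matched by symbol for 5 of the 10 genes, namely *Pdgfra*, *Pdpn*, *Postn*, *Tnc* and *Sparc*. The 250 bases before the start site of *Postn*, *Tnc* and *Sparc* are shown because these 3 genes were lower in *Cldn2*TG CAC mice than in both other groups. They are written 5′ to 3′ on the strand of the gene, and capitals mark TATAAA, the core promoter motif known as the TATA box. The stretches are chr3:54360857-54361106 on the plus strand, chr4:64047016-64047265 on the minus strand and chr11:55420081-55420330 on the minus strand.
Postn: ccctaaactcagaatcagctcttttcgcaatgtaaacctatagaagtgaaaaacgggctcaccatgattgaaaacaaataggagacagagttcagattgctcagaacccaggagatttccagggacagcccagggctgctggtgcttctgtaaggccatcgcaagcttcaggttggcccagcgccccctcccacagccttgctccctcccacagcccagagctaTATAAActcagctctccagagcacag
Tnc: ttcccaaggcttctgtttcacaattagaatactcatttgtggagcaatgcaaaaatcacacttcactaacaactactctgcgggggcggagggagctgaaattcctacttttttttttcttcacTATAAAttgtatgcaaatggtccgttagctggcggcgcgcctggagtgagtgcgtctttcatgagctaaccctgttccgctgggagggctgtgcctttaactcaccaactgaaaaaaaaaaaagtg
Sparc: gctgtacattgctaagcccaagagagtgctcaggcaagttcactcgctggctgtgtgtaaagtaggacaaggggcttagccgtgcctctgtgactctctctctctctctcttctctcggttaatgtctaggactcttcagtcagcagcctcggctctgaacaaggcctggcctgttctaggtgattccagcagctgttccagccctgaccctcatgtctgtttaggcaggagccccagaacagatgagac
TATAAA begins 26 bases before the start site in *Postn* and 126 bases before it in *Tnc*, and it is not among these letters in *Sparc*. Within 250 bases before and 50 bases after the start site, 13.6% of 32851 RefSeq promoters hold TATAAA on either strand. TGANTCA (the AP-1 motif, where N is any base), GGAATG (the TEAD motif) and the CArG box of serum response factor were searched on both strands in the same windows of the 5 genes, with no match and no overlap with TATAAA. They are held by 7.81%, 14.7% and 1.63% of all promoters. These matches describe the sequence and do not show which factor acts there.

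The reads counted on genes numbered 14142711 to 22262546 per mouse after the 2 lanes of each library were summed. Values are CPM, counts scaled to a common library size with TMM factors, which correct for library composition, and 3 counts, the limit that a count of 0 allows, corresponded to 0.135 to 0.212 CPM. *Cldn2* was 119, 137 and 132 CPM in WT CAC, 208, 218 and 251 CPM in the transgenic group, and 192, 259 and 245 CPM in naive WT, so that the transgenic group stood above WT CAC and not above naive WT. Gene counts do not separate the transgene from the endogenous gene. By *Xist* and 4 genes of the Y chromosome, 1 mouse, naive WT mouse 1, was female (*Xist*, 214 CPM) and the other 8 were male (*Xist* at most 0.203 CPM), and values without this mouse are given beside several of the comparisons. Epithelial markers were abundant in every mouse (8 genes with a sum of 13400 to 19700 CPM), and each of the 10 stromal genes lay between 1.21 and 213 CPM, which does not give the share of cells of either kind.

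Per kilobase of gene length, the mean level ranged over 121-fold in naive WT mice, from *Sparc* (34.7 CPM per kb) and *Dcn* (26.2 CPM per kb) at the top to *Fap* (0.288 CPM per kb) at the bottom. *Postn* (8.06 CPM per kb) and *Fn1* (7.79 CPM per kb) came next and overlapped between mice, as did *Thy1* (3.55), *Tnc* (3.25) and *Lum* (3.16 CPM per kb). *Pdpn* (1.65 CPM per kb) and *Pdgfra* (0.960 CPM per kb) each stood apart from their neighbors. In both CAC groups *Dcn* was first, at 62.4 CPM per kb in WT CAC and 27.5 CPM per kb in *Cldn2*TG CAC, and *Fap* remained last. *Dcn* and *Sparc* overlapped between WT CAC mice, whereas in *Cldn2*TG CAC mice they did not (20.5 to 31.4 against 9.65 to 11.4 CPM per kb). Of the 9 pairs of neighbors in this order, 3 overlapped in naive WT, 6 in WT CAC and 4 in the transgenic group.

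Among the receptor and surface genes, *Pdgfra* was 12.8, 6.23 and 9.86 CPM in naive WT mice 1 to 3, 10.6, 28.35 and 16.1 CPM in WT CAC mice 4 to 6, and 8.96, 3.55 and 3.32 CPM in *Cldn2*TG CAC mice 7 to 9. *Pdpn* was 2.94, 3.21 and 2.82 CPM in naive WT, 3.30, 6.37 and 5.16 CPM in WT CAC, and 2.20, 2.18 and 3.10 CPM in *Cldn2*TG CAC mice. Both were highest in WT CAC mouse 5, and for both every *Cldn2*TG CAC mouse lay below every WT CAC mouse. *Thy1* was 5.72, 5.93 and 6.82 CPM in naive WT, 11.3, 14.2 and 11.05 CPM in WT CAC, and 6.27, 6.03 and 6.57 CPM in *Cldn2*TG CAC mice. Its WT CAC mice stood apart, above both other groups, which overlapped each other.

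Of the resting genes, *Dcn* was 59.0, 47.3 and 57.8 CPM in naive WT, 95.04, 213 and 82.1 CPM in WT CAC, and 42.6, 65.4 and 64.0 CPM in *Cldn2*TG CAC mice. *Lum* was 7.96, 4.37 and 7.34 CPM in naive WT, 9.45, 25.2 and 5.89 CPM in WT CAC, and 3.44, 4.76 and 7.17 CPM in *Cldn2*TG CAC mice. WT CAC mouse 5 stood far above all other mice for both proteoglycans, and without it the WT CAC mice overlapped naive WT mice for *Lum* and remained above them for *Dcn*. Across the 9 mice the log2 CPM of the adjacent genes *Dcn* and *Lum* had a Pearson r of 0.92, a description over points that share groups and libraries. Per kilobase, *Dcn* was 7.37 to 13.9 times *Lum* in each mouse.

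Of the activated genes, *Postn* was 66.6, 57.9 and 85.9 CPM in naive WT, 87.2, 77.8 and 57.5 CPM in WT CAC, and 43.9, 34.2 and 24.8 CPM in *Cldn2*TG CAC mice. *Tnc* was 34.8, 15.3 and 25.7 CPM in naive WT, 28.8, 25.5 and 18.9 CPM in WT CAC, and 12.9, 9.83 and 8.35 CPM in *Cldn2*TG CAC mice. For both genes naive WT and WT CAC mice were mixed in order, and all 3 *Cldn2*TG CAC mice lay below all 6 others. *Fap* was 1.29, 1.56 and 2.04 CPM in naive WT, 2.39, 1.90 and 1.21 CPM in WT CAC, and 1.86, 1.62 and 1.48 CPM in *Cldn2*TG CAC mice, from 18 to 47 reads per mouse. The 3 groups overlapped for *Fap*, and it did not share the low values of *Postn* and *Tnc* in *Cldn2*TG CAC mice. Across the 9 mice *Postn* and *Tnc* had a Pearson r of 0.92, and *Fap* had one of 0.42 with *Postn* and 0.22 with *Tnc*.

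Of the broad matrix genes, *Fn1* was 108, 68.3 and 97.2 CPM in naive WT, 121, 156 and 165 CPM in WT CAC, and 46.8, 50.6 and 37.9 CPM in *Cldn2*TG CAC mice. *Sparc* was 124, 102 and 124 CPM in naive WT, 85.0, 171 and 99.6 CPM in WT CAC, and 37.3, 32.5 and 38.4 CPM in *Cldn2*TG CAC mice. *Fn1* fell into 3 separate ranges, with WT CAC highest and *Cldn2*TG CAC lowest, while for *Sparc* only the *Cldn2*TG CAC mice stood apart, below all others. The plot of CPM by mouse shows all 10 genes on their own scales.

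**Figure D1:**
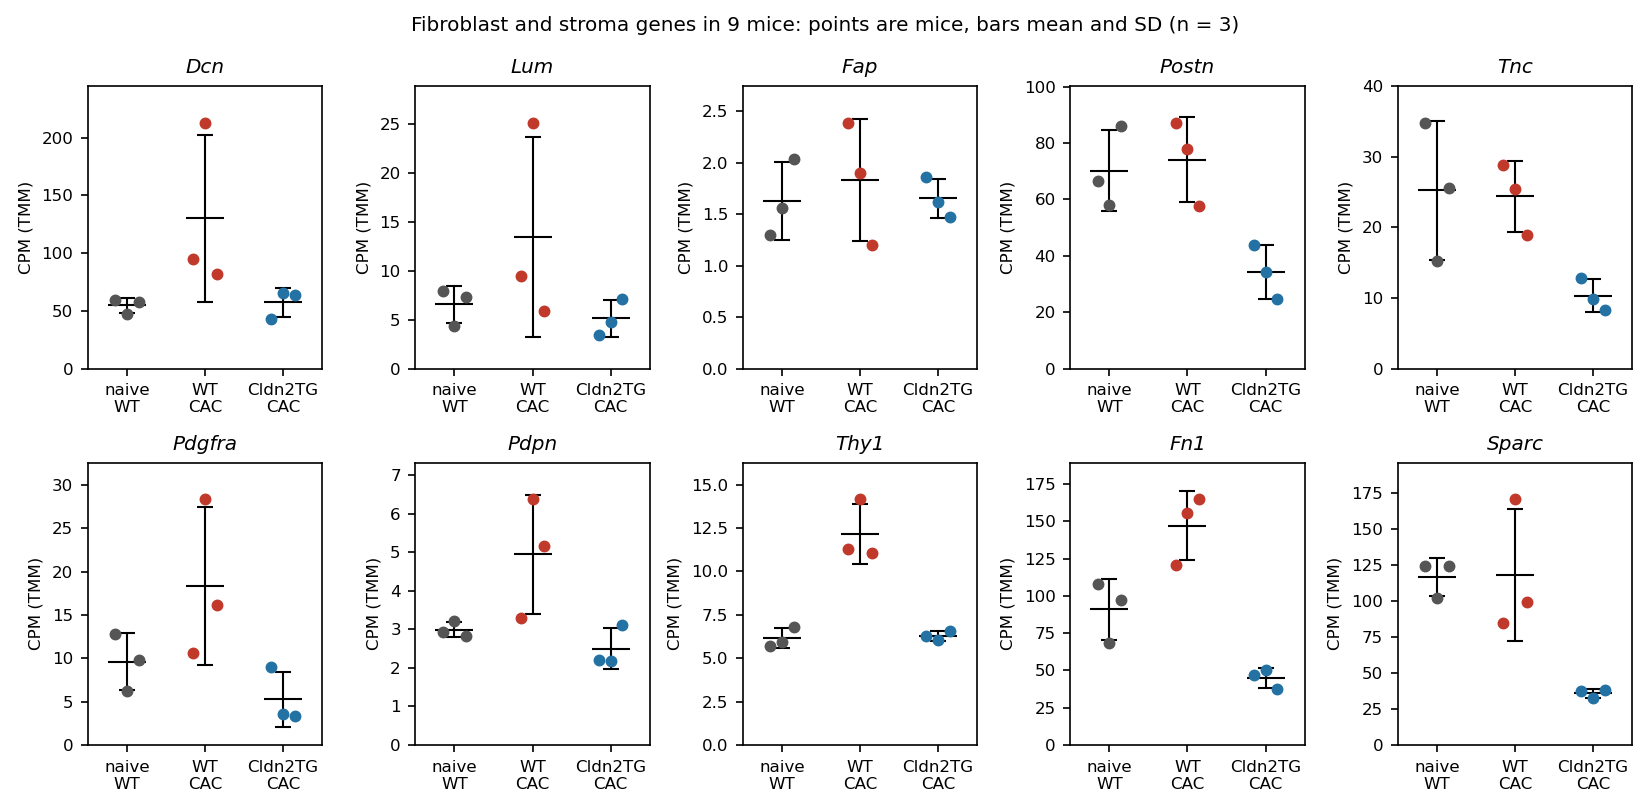
CPM with TMM factors (vertical axes, starting at 0) of the 10 genes in each of the 9 mice, by group on the horizontal axes; points are mice, and horizontal bars with whiskers are the mean and SD of 3 mice. *Cldn2*TG CAC mice (blue) lie below all others for *Postn*, *Tnc*, *Fn1* and *Sparc*, and WT CAC mice (red) lie above all others for *Dcn*, *Pdpn*, *Thy1* and *Fn1*.

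WT CAC mice were first compared with naive WT mice, which addresses what AOM/DSS treatment changed in the WT colon. *Thy1* and *Fn1* rose, and none of the other 8 genes passed the test. *Thy1* increased from 6.16 ± 0.583 to 12.2 ± 1.73 CPM (SD, n = 3 mice each), a log2 fold change of 1.01 (SE 0.18, edgeR adjusted p = 0.0158). *Fn1* increased from 91.1 ± 20.4 to 147 ± 23.2 CPM (SD, n = 3 mice each), a log2 fold change of 0.72 (SE 0.19, edgeR adjusted p = 0.0440). These are 2 of 10 genes, beside 8.04% of the 15437 genes tested that were called higher and 6.92% that were called lower at an adjusted p under 0.05. No gene of the 10 was called lower, and the 5 with an unadjusted p under 0.05 were all higher in WT CAC mice. DESeq2 called 3 of the 10 higher, beside 11.4% of all genes by that test, and limma voom called 2, beside 6.78%. For 4 genes, *Dcn*, *Pdpn*, *Thy1* and *Fn1*, every WT CAC mouse exceeded every naive WT mouse, beside 17.7% of all genes tested. The median log2 fold change of the 10 genes was 0.73, against 0.02 over all genes tested.

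The resting genes had positive log2 fold changes of 1.27 for *Dcn* (SE 0.35, 95% interval 0.45 to 2.09, adjusted p = 0.0519) and 1.07 for *Lum* (SE 0.52, 95% interval -0.16 to 2.29, adjusted p = 0.204). *Dcn* was on the edge of the threshold. DESeq2 called it (adjusted p = 0.000969), and so did edgeR without WT CAC mouse 5, at a lower log2 fold change of 0.73 (adjusted p = 0.0367). For *Lum* the value without WT CAC mouse 5 was 0.26 (adjusted p = 0.634). *Pdgfra* (0.95, 95% interval 0.05 to 1.86, adjusted p = 0.137) and *Pdpn* (0.75, 95% interval 0.09 to 1.41, adjusted p = 0.113) had positive values that did not pass the test. *Fap* (0.20, interval -0.59 to 0.99), *Postn* (0.11, interval -0.34 to 0.55), *Tnc* (-0.02, interval -0.71 to 0.66) and *Sparc* (0.04, interval -0.53 to 0.61) had 95% intervals on both sides of 0. Without naive WT mouse 1, 2 or 3 in turn, edgeR called 0 of the 10 genes, beside 2.44%, 0.47% and 1.45% of all genes called higher. *Thy1* stayed at log2 fold changes of 0.96, 0.97 and 1.07 in these fits (adjusted p = 0.0592, 0.0741 and 0.0553), and *Fn1* was at 0.85, 0.54 and 0.75 (adjusted p = 0.0675, 0.12 and 0.113). The call of *Fn1* was also lost without WT CAC mouse 5 (0.68, adjusted p = 0.0997) or mouse 6 (0.62, adjusted p = 0.115), where *Thy1* and *Dcn* were called, beside 4.24% and 3.77% of all genes called higher. Without WT CAC mouse 4, 5 genes were called, *Thy1* and *Fn1* with *Dcn*, *Pdgfra* and *Pdpn*, beside 14.1% of all genes called higher.

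*Cldn2*TG CAC mice were then compared with WT CAC mice, which addresses how the transgene changed the treated colon. All 10 genes had lower point values in *Cldn2*TG CAC mice, and 5 fell, namely *Fn1*, *Sparc*, *Tnc*, *Postn* and *Thy1*. *Fn1* decreased from 147 ± 23.2 to 45.1 ± 6.51 CPM (SD, n = 3 mice each), 3.31-fold (log2 fold change -1.73, SE 0.17, edgeR adjusted p = 0.00277). *Sparc* decreased from 118 ± 46.0 to 36.1 ± 3.16 CPM, 3.33-fold (log2 fold change -1.74, SE 0.25, adjusted p = 0.00881). The matricellular genes *Tnc* and *Postn* changed by -1.26 (SE 0.22, adjusted p = 0.0133) and -1.13 (SE 0.23, adjusted p = 0.0211) on the log2 scale, and *Thy1* by -0.97 (SE 0.19, adjusted p = 0.0178), back to 6.29 ± 0.273 CPM. These are 5 of 10 genes, beside 7.35% of the 14888 genes tested that were called lower and 2.19% that were called higher. For 8 genes every *Cldn2*TG CAC mouse lay below every WT CAC mouse, beside 14.3% of all genes tested, and *Lum* and *Fap* overlapped. The median log2 fold change of the 10 genes was -1.23, against 0.01 over all genes tested.

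The largest point value among the genes that did not pass was that of *Pdgfra*, which was 18.35 ± 9.09 CPM in WT CAC and 5.28 ± 3.19 CPM in *Cldn2*TG CAC mice (SD, n = 3 mice each), a log2 fold change of -1.82 (SE 0.49, 95% interval -2.98 to -0.67, adjusted p = 0.0633). *Pdgfra* was called without *Cldn2*TG CAC mouse 7 (-2.42, adjusted p = 0.0376) or WT CAC mouse 4 (-2.10, adjusted p = 0.022), and it was at -1.37 without WT CAC mouse 5 (adjusted p = 0.157). *Pdpn* was at -1.01 (interval -1.74 to -0.28, adjusted p = 0.0866), *Dcn* at -1.20 (interval -2.08 to -0.32, adjusted p = 0.0979) and *Lum* at -1.43 (interval -2.70 to -0.15, adjusted p = 0.163). *Fap* was at -0.18 (interval -0.96 to 0.60, adjusted p = 0.835), and the difference between *Fap* and the genes that fell was not tested. DESeq2 called 9 of the 10 genes lower, all but *Fap*, beside 9.97% of all genes by that test, and edgeR with all 9 mice in the fit called 8, beside 9.51%. Without *Cldn2*TG CAC mouse 8 or mouse 9, edgeR called 1 gene, *Fn1*, beside 0.316% and 0.546% of all genes called lower. Without mouse 7 it called 5, beside 2.41% of all genes, with *Pdgfra* gained and *Thy1* lost (-0.96, adjusted p = 0.0675). Without WT CAC mouse 5 it called 3, *Fn1*, *Sparc* and *Tnc*, beside 2.98% of all genes. Without that mouse *Dcn* was at -0.66 (adjusted p = 0.106), *Lum* at -0.63 (adjusted p = 0.399) and *Thy1* at -0.86 (adjusted p = 0.0669). Without WT CAC mouse 4, edgeR called 7, beside 13.1% of all genes. *Fn1* was called in each of the 17 alternatives (adjusted p at most 0.0266).

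*Cldn2*TG CAC mice were also compared with naive WT mice, which differ in both genotype and treatment. The values of WT CAC and *Cldn2*TG CAC mice against naive WT share the naive WT mice, and those of the *Cldn2*TG CAC mice enter both comparisons of that group. *Sparc*, *Fn1*, *Postn* and *Tnc* were below naive WT, whereas *Thy1* and *Dcn* were close to it. *Sparc* decreased from 116.9 ± 12.9 to 36.1 ± 3.16 CPM (SD, n = 3 mice each), 3.23-fold (log2 fold change -1.69, SE 0.12, edgeR adjusted p = 8.66e-05). *Tnc* changed by -1.28 (SE 0.31, adjusted p = 0.0391), *Postn* by -1.02 (SE 0.22, adjusted p = 0.0257) and *Fn1* by -1.01 (SE 0.17, adjusted p = 0.0101) on the log2 scale. These are 4 of 10 genes, beside 6.07% of the 15013 genes tested that were called lower and 3.92% that were called higher. The same 4 genes had every *Cldn2*TG CAC mouse below every naive WT mouse, beside 16.3% of all genes tested. The 4 genes with an unadjusted p under 0.05 were those called, and DESeq2 called 4, beside 6.66% of all genes lower by that test, as did limma voom, beside 5.5%. The median log2 fold change of the 10 genes was -0.61, against 0.00 over all genes tested.

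*Dcn* had a log2 fold change of 0.07 (95% interval -0.29 to 0.44, adjusted p = 0.811) and *Thy1* one of 0.04 (interval -0.36 to 0.43, adjusted p = 0.924). How these 2 genes differed from the 4 that fell was not tested. *Lum* (-0.36, interval -1.03 to 0.31), *Pdpn* (-0.26, interval -0.80 to 0.28), *Fap* (0.02, interval -0.62 to 0.66) and *Pdgfra* (-0.87, interval -1.87 to 0.13) had wider intervals that reached both sides of 0. Without *Cldn2*TG CAC mouse 7, *Pdgfra* was at -1.49 and called (adjusted p = 0.0231), and the call of *Tnc* was lost (-1.47, adjusted p = 0.0579). *Sparc* and *Fn1* were called in each of the 17 alternatives. Without *Cldn2*TG CAC mouse 8, naive WT mouse 1 or naive WT mouse 3, the calls fell to 2, *Sparc* and *Fn1*, beside 2.65%, 3.65% and 2.27% of all genes called lower. Without the female naive WT mouse 1, the calls of *Postn* (-1.05, adjusted p = 0.0572) and *Tnc* (-0.97, adjusted p = 0.0561) were lost, while *Sparc* was at -1.64 (adjusted p = 0.000786) and *Fn1* at -0.86 (adjusted p = 0.0252). The plot of log2 fold changes shows the 3 comparisons side by side.

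**Figure D2:**
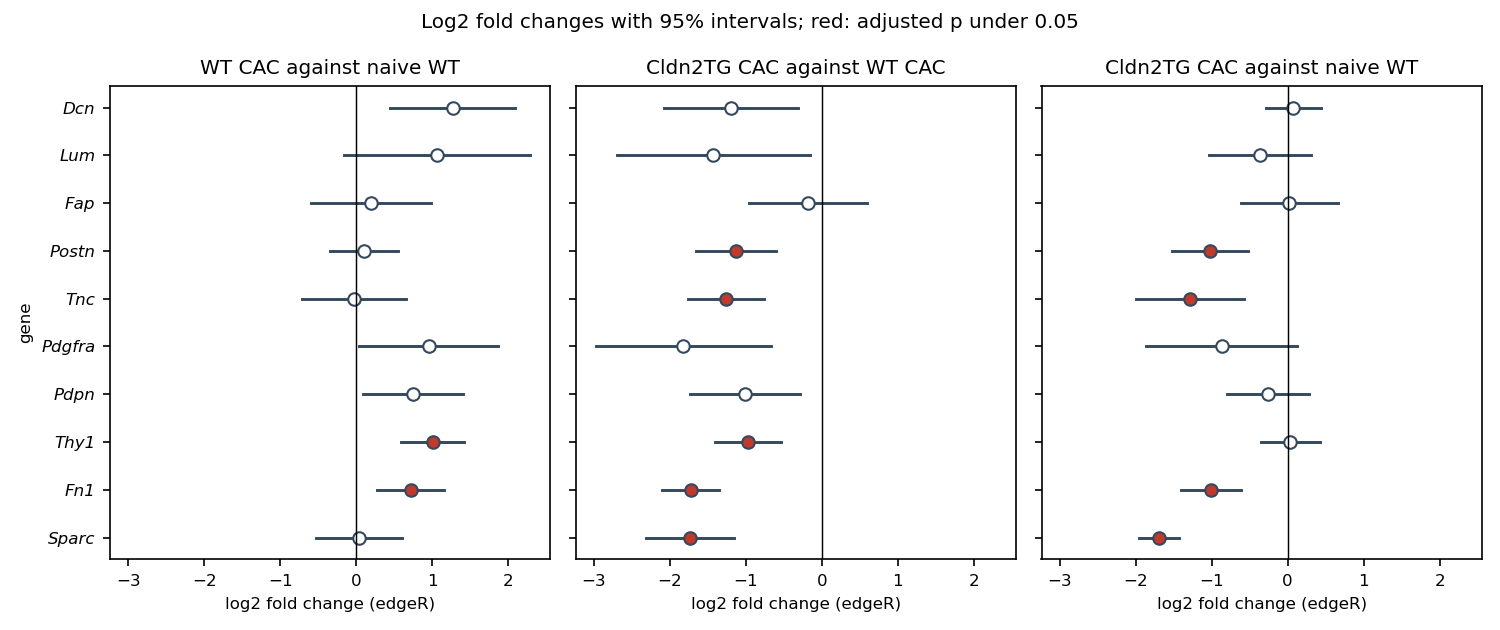
Log2 fold changes (horizontal axes) of the 10 genes in the 3 comparisons, with 95% intervals as lines; red points have an edgeR adjusted p under 0.05 and open points do not. *Fn1* is called in all 3 panels, *Sparc*, *Postn* and *Tnc* in both panels of *Cldn2*TG CAC mice, and *Fap* in none.

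Activated and resting genes were set against each other in each mouse, as the mean log2 CPM of *Fap*, *Postn* and *Tnc* minus that of *Dcn* and *Lum*. The difference was -0.56, -0.35 and -0.30 in naive WT mice, -0.71, -2.21 and -0.98 in WT CAC mice, and -0.245, -1.09 and -1.64 in the transgenic group. All WT CAC mice lay below all naive WT mice, and of the *Cldn2*TG CAC mice, mouse 7 lay above all naive WT mice and the other 2 within the range of WT CAC. The group means were -0.40 ± 0.14, -1.30 ± 0.80 and -0.99 ± 0.70 (SD, n = 3 mice each), and no test was made of this score. Resting genes averaged 4.23 ± 0.318, 5.20 ± 0.895 and 4.07 ± 0.412 log2 CPM in the naive WT, WT CAC and transgenic groups, and activated genes 3.83 ± 0.286, 3.897 ± 0.364 and 3.08 ± 0.292 log2 CPM. The difference between *Cldn2*TG CAC and WT CAC means was 0.31, less than the spread within either group, and it turned to -0.149 without WT CAC mouse 5 and to -0.068 without *Cldn2*TG CAC mouse 7. The difference between WT CAC and naive WT means was -0.893, and it was -0.438 without WT CAC mouse 5. Between genes and per kilobase, *Postn* was 0.270 to 0.356 times *Dcn* in naive WT, 0.0876 to 0.220 times in WT CAC and 0.0928 to 0.246 times in *Cldn2*TG CAC mice.

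**Figure D3:**
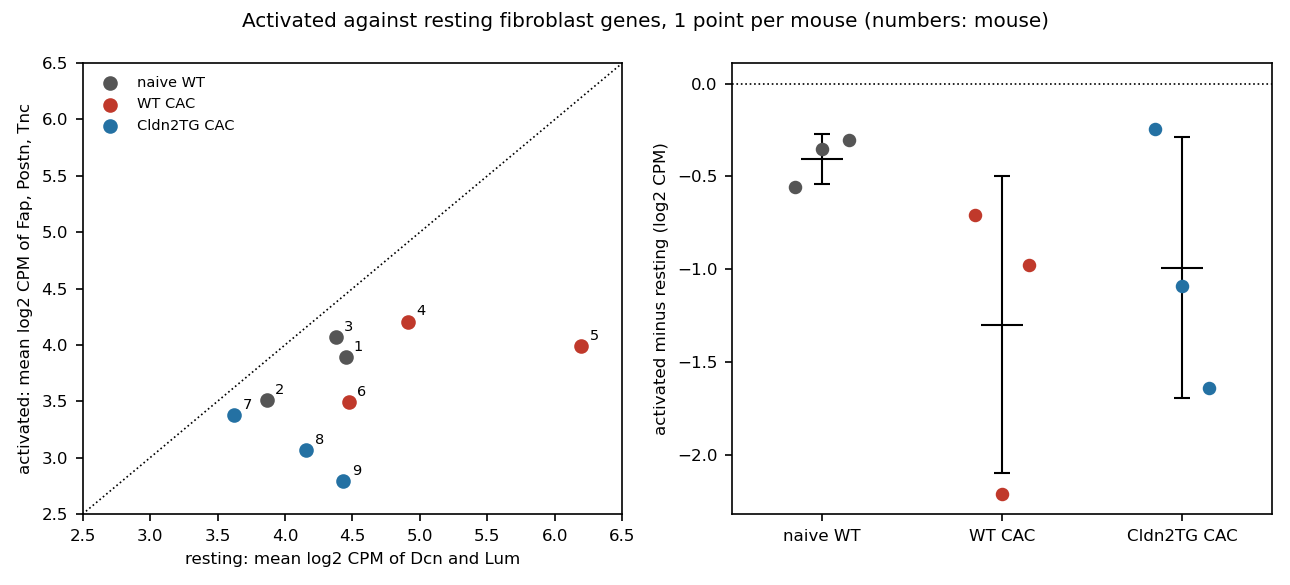
Left, mean log2 CPM of the activated genes (vertical axis) against that of the resting genes (horizontal axis), 1 point per mouse with its number, and the dotted line marks equal values; right, their difference by group, with the mean and SD of 3 mice. WT CAC mouse 5 lies far to the right at 6.20 on the resting axis, and *Cldn2*TG CAC mice lie lowest on the activated axis, from 2.79 to 3.38.

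Other fibroblast genes were then counted by list, to be read beside the shares of all genes tested, which were 8.04% higher and 6.92% lower in WT CAC against naive WT, 2.19% higher and 7.35% lower for the transgenic group against WT CAC, and 3.92% higher and 6.07% lower for it against naive WT. With 1 mouse left out, these shares ranged from 0.47% to 14.1% higher in WT CAC against naive WT. For the transgenic group they ranged from 0.316% to 13.1% lower against WT CAC and from 2.27% to 5.2% lower against naive WT. Of 10 further resting fibroblast genes, 1 rose in WT CAC against naive WT and 1 fell against WT CAC in the transgenic group, shares near those of all genes, and both times it was *Mgp*, which encodes matrix Gla protein (log2 fold changes 3.82 and -4.07). *Mgp* was 9.04 ± 0.973 CPM in naive WT, 126 ± 95.9 CPM in WT CAC and 7.60 ± 0.856 CPM in *Cldn2*TG CAC mice. The median log2 fold change of this list was 0.48 and -0.28 in these comparisons and -0.01 in *Cldn2*TG CAC against naive WT, where 1 gene, *Abca8a*, fell. Of 11 further activated fibroblast genes tested, 4 rose in WT CAC against naive WT and 6 fell in *Cldn2*TG CAC against WT CAC. The first count was 0 without naive WT mouse 2 or 3 and 2 without naive WT mouse 1 or WT CAC mouse 5. The second was 0 without *Cldn2*TG CAC mouse 8 or 9 and 1 without mouse 7. Without WT CAC mouse 4 they were 5 and 7. *Adam12*, a metalloprotease, was 0.179 ± 0.109 CPM in naive WT, near the level of 3 counts, and 3.44 ± 2.14 CPM in WT CAC mice (adjusted p = 0.0145), and *Timp1*, an inhibitor of metalloproteases, was 0.652 ± 0.263 and 5.002 ± 3.05 CPM (log2 fold change 2.94, adjusted p = 0.0199). Both fell against WT CAC in the transgenic group, *Adam12* to 0.114 ± 0.0939 CPM, below the level of 3 counts (adjusted p = 0.0115), and *Timp1* to 0.468 ± 0.0571 CPM (log2 fold change -3.42, adjusted p = 0.0118). *Adam12* passed the filter through its WT CAC values only, so its calls could take no other direction. The counts of 4 and 6 include it. In *Cldn2*TG CAC against naive WT, 4 of 9 activated genes fell, among them *Acta2* (smooth muscle actin, -1.43, adjusted p = 0.00988) and *Grem1* (a BMP antagonist, -1.68, adjusted p = 0.0105). *Acta2* is also a gene of smooth muscle.

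The subepithelial genes that accompany high *Pdgfra* had the largest share of calls among the 10 stromal lists in WT CAC against naive WT, with 6 of 8 higher and a median log2 fold change of 1.34. This count was 0 without naive WT mouse 2, 1 without naive WT mouse 3 and 7 without WT CAC mouse 4. It was 3 without naive WT mouse 1 or WT CAC mouse 5. Without naive WT mouse 3 the receptors of fibronectin and tenascin had a larger share, 2 of 11. *Foxl1*, a transcription factor of subepithelial fibroblasts, was 0.797 ± 0.262 CPM in naive WT and 4.55 ± 2.16 CPM in WT CAC mice (log2 fold change 2.53, adjusted p = 0.0139), and *Wnt5a*, a Wnt ligand, was 2.52 ± 0.836 and 10.3 ± 4.32 CPM (2.05, adjusted p = 0.0163). In *Cldn2*TG CAC against WT CAC, 4 of 8 fell, among them *Foxl1* (-3.65, adjusted p = 0.00848) and *Wnt5a* (-2.15, adjusted p = 0.0141), and *Pdgfra* itself did not pass. The count that fell was 0 without *Cldn2*TG CAC mouse 8 or 9, 2 without WT CAC mouse 5 and 5 without WT CAC mouse 4. Against naive WT none of the 8 fell and *F3*, tissue factor, rose (0.72, adjusted p = 0.0165). Of the 6 PDGF ligands and related receptors, 3 rose in WT CAC, namely *Pdgfa*, *Pdgfb* and *Pdgfrl*, and 3 fell in *Cldn2*TG CAC against WT CAC, namely *Pdgfb*, *Pdgfc* and *Pdgfrl*. The first count was 0 without any 1 naive WT mouse and 1 without WT CAC mouse 5. The second was 0 without any 1 *Cldn2*TG CAC mouse or WT CAC mouse 5, and 1 without WT CAC mouse 6. *Pdgfa*, a ligand of the receptor that *Pdgfra* encodes, was 59.9 ± 5.89 CPM in naive WT and 88.2 ± 17.0 CPM in WT CAC mice (0.58, adjusted p = 0.0455). *Pdgfrb* fell in *Cldn2*TG CAC against naive WT (-0.89, adjusted p = 0.0215), the 1 call among 5 genes tested.

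Matrix families related to the 10 genes were counted next. Of the elastic fiber and microfibril genes, 6 of 14 fell against WT CAC and 7 of 14 against naive WT in the transgenic group, with median log2 fold changes of -1.14 and -0.74. The first count was 0 without *Cldn2*TG CAC mouse 8, 1 without mouse 9 and 4 without mouse 7 or WT CAC mouse 5. It was 9 without WT CAC mouse 4, and the second count was 4 to 7 with 1 mouse left out. *Eln* (elastin) was 15.8 ± 2.23 CPM in naive WT and 4.42 ± 1.37 CPM in *Cldn2*TG CAC mice (-1.85, adjusted p = 0.00222), and *Emilin1*, an elastic fiber glycoprotein, was 18.8 ± 3.93 and 7.11 ± 1.81 CPM (-1.39, adjusted p = 0.00551). In WT CAC against naive WT, *Eln* fell (-1.02, adjusted p = 0.0304) and *Ltbp1*, which anchors latent TGF-beta, rose (1.10, adjusted p = 0.0246), the 2 calls among 15 genes. Of the matricellular genes, 2 of 14 rose in WT CAC (*Spock2* and *Spp1*), 5 of 13 fell against WT CAC in the transgenic group, and 2 of 13 fell against naive WT. The last 2 were *Sparcl1*, a relative of *Sparc* (146.5 ± 18.3 against 53.2 ± 15.02 CPM, -1.45, adjusted p = 0.00574), and *Thbs2*, thrombospondin 2 (-1.66, adjusted p = 0.0165). The matricellular count in WT CAC was 0 without naive WT mouse 1 or 2 and 7 without WT CAC mouse 4. That against WT CAC was 0 without *Cldn2*TG CAC mouse 8 or WT CAC mouse 5 and 1 without mouse 7 or 9. It was 8 without WT CAC mouse 4, and that against naive WT was 1 to 4 with 1 mouse left out.

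Among 7 further small leucine-rich proteoglycans tested, 4 fell in *Cldn2*TG CAC against naive WT. *Aspn* (asporin) was at -1.72 (adjusted p = 0.00227), *Ogn* (osteoglycin) at -1.16 (adjusted p = 0.0026) and *Bgn* (biglycan) at -1.03 (adjusted p = 0.0316), and the fourth was *Prelp*. *Prelp* took another course, at 51.3 ± 8.26 CPM in naive WT, 17.4 ± 0.380 CPM in WT CAC and 28.5 ± 1.13 CPM in *Cldn2*TG CAC mice, so that it fell in WT CAC (-1.54, adjusted p = 0.00255) and was higher in *Cldn2*TG CAC than in WT CAC (0.69, adjusted p = 0.0136). *Podn* rose in WT CAC, and *Bgn* and *Podn* fell in *Cldn2*TG CAC against WT CAC. Neither fall was called without *Cldn2*TG CAC mouse 8 or 9, and the 4 calls against naive WT were 3 or 4 with 1 mouse left out. Of the 11 receptors of fibronectin and tenascin, 3 rose and 1 fell in WT CAC, 1 rose and 4 fell against WT CAC in the transgenic group, and 1 rose and 2 fell against naive WT. The shares of all genes were 6.92% lower in the first of these comparisons and 2.19% higher in the second, so a single call among 11 genes is no result about the list. The count of receptors that rose in WT CAC was 0 without naive WT mouse 2 and 2 without naive WT mouse 3. The count that fell against WT CAC was 0 without *Cldn2*TG CAC mouse 8 or 9 and 1 without mouse 7. It was 2 without WT CAC mouse 5 or 6 and 6 without WT CAC mouse 4. *Itgb6*, an integrin subunit of epithelium, was 31.0 ± 3.26 CPM in naive WT and 63.8 ± 9.41 CPM in WT CAC mice (1.06, adjusted p = 0.00806), and *Itgb3* was 7.999 ± 1.16 CPM in naive WT and 2.90 ± 0.479 CPM in *Cldn2*TG CAC mice (-1.45, adjusted p = 0.00448). Of 4 peptidases related to *Fap*, *Dpp4* alone was called, at 59.3 ± 4.74 CPM in naive WT, 24.1 ± 2.0 CPM in WT CAC and 46.3 ± 0.512 CPM in *Cldn2*TG CAC mice. Of 5 partners of podoplanin, *Msn* (moesin) rose in WT CAC (0.98, adjusted p = 0.0487), and *Msn* (-1.87, adjusted p = 0.000764) and *Cd44* (-1.44, adjusted p = 0.0103) fell in *Cldn2*TG CAC against WT CAC, with no call against naive WT. The rise of *Msn* was lost in 9 of 17 alternatives, and the fall of *Cd44* was lost without *Cldn2*TG CAC mouse 8 or 9.

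Of the calls named in these lists, those of *Prelp* and *Dpp4* in WT CAC against naive WT, *Msn* against WT CAC in the transgenic group, and *Eln*, *Emilin1*, *Sparcl1*, *Aspn*, *Ogn* and *Itgb3* in *Cldn2*TG CAC against naive WT held in each of the 17 alternatives. Of all calls of the list genes chosen by rule, 2 of 23, 1 of 30 and 8 of 22 held in every alternative in WT CAC against naive WT, the transgenic group against WT CAC and the transgenic group against naive WT. Without the female naive WT mouse 1, 12 of the 23 calls in WT CAC against naive WT were lost, those of *Pdgfa*, *Pdgfb*, *Pdgfrl*, *Timp1*, *Eln*, *Ltbp1*, *Sdc4*, *Spock2*, *Spp1*, *Mgp*, *Podn* and *Bmp7*, with adjusted p from 0.0521 (*Spock2*) to 0.134 (*Pdgfb*) in edgeR. Their log2 fold changes stayed near the values with it, such as 3.80 for *Mgp* and 2.78 for *Timp1*, and all 12 were also lost without naive WT mouse 2 or 3, which ended 21 and 16 calls. In the transgenic group against naive WT, 5 of 22 were lost without it, those of *Loxl2*, *Fbln1*, *Ltbp1*, *Dpp4* and *Bgn*, with adjusted p from 0.0532 (*Dpp4*) to 0.0841 (*Loxl2*), and *Bgn*, for example, at -0.91. All 5 were also lost without mouse 2 or 3, which ended 3 and 9 calls.

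**Figure D4:**
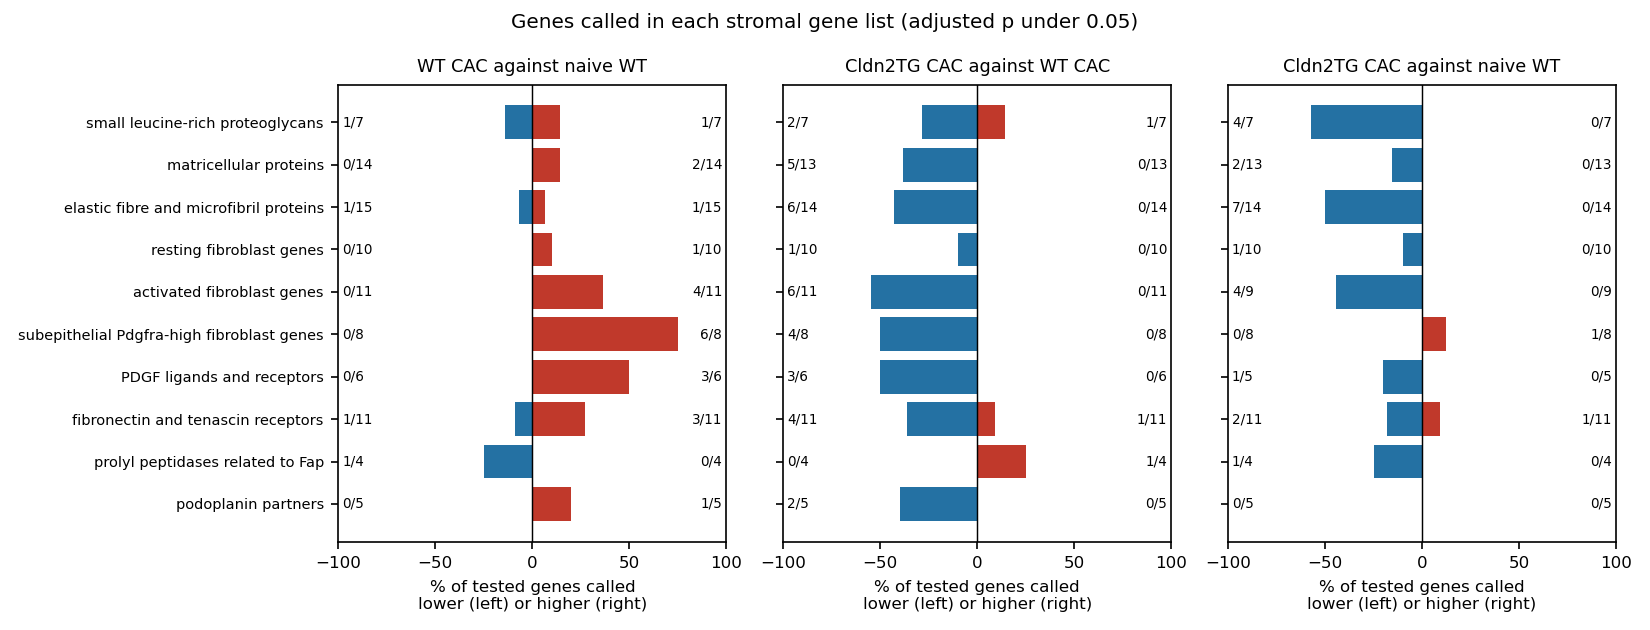
Share of the tested genes of each of 10 stromal gene lists (vertical axis) called higher (red, to the right) or lower (blue, to the left) at an edgeR adjusted p under 0.05, in percent (horizontal axes), with the counts at the edges. The subepithelial list has the longest red bar in WT CAC against naive WT (6 of 8), and in *Cldn2*TG CAC against naive WT the 3 longest blue bars are those of the proteoglycans (4 of 7), elastic fibers (7 of 14) and activated genes (4 of 9). The first count is 0 of 8 without naive WT mouse 2 and 1 of 8 without mouse 3. Without *Cldn2*TG CAC mouse 8 the other 3 are 3 of 7, 4 of 15 and 1 of 10.

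Markers of other cell types moved with several of these results, and their part in them was not tested. Counts with 1 mouse left out are to be read beside the share of all genes in the same fit. It ranged from 0.47% to 14.1% higher in WT CAC against naive WT and from 0.316% to 13.1% lower in *Cldn2*TG CAC against WT CAC. In *Cldn2*TG CAC against naive WT it ranged from 2.27% to 5.2% lower, and shares in the other directions were not computed. A count that moved with its share is no trait of the cell type. Blood endothelium, which also makes *Sparc* and *Fn1*, summed over 6 genes to 50.9 to 61.0 CPM in naive WT, 51.3 to 66.6 CPM in WT CAC and 22.6 to 27.8 CPM in *Cldn2*TG CAC mice, and 4 of its 6 genes fell against WT CAC in the transgenic group and 5 of 6 against naive WT. The first count was 1 without *Cldn2*TG CAC mouse 7, 8 or 9, 2 without WT CAC mouse 5, 3 without mouse 6 and 5 without mouse 4, and the second was 3 without *Cldn2*TG CAC mouse 8 or naive WT mouse 2 and 4 without any other mouse. *Plvap*, a protein of fenestrated endothelium, was 18.4 ± 1.29, 16.95 ± 1.62 and 3.86 ± 1.24 CPM in the naive WT, WT CAC and transgenic groups. Smooth muscle (7 genes) summed to 1760 to 3570, 943 to 2650 and 850 to 1340 CPM, with 0, 0 and 3 genes called lower in WT CAC against naive WT, *Cldn2*TG CAC against WT CAC and *Cldn2*TG CAC against naive WT. The first of these counts was 5 without WT CAC mouse 4, and the last was 1 without naive WT mouse 3, 2 without *Cldn2*TG CAC mouse 7 and 6 without naive WT mouse 2. Pericytes (5 genes) summed to 54.3 to 74.3, 33.9 to 44.7 and 16.0 to 29.2 CPM, with 2, 1 and 3 of 4 tested genes lower. The count in WT CAC against naive WT was 0 without naive WT mouse 2 or 3 and 1 without naive WT mouse 1 or WT CAC mouse 5 or 6, that in *Cldn2*TG CAC against WT CAC was 0 without *Cldn2*TG CAC mouse 7, 8 or 9 or WT CAC mouse 5, and that against naive WT was 2 or 3. Enteric glia (5 genes) summed to 6.43 to 10.5, 1.95 to 6.30 and 1.85 to 3.09 CPM and enteric neurons (5 genes), which express *Thy1*, to 32.2 to 50.2, 24.7 to 42.6 and 10.9 to 16.0 CPM, and in *Cldn2*TG CAC against naive WT all 4 tested genes of each were lower. The neuronal count was 4 with each of the 6 mice left out, whereas the glial count was 1 without naive WT mouse 1 or 3 or *Cldn2*TG CAC mouse 9, 2 without mouse 8 and 3 without mouse 7 or naive WT mouse 2. In WT CAC against naive WT, 2 of 4 neuronal genes, *Uchl1* and *Tubb3*, were also lower, and 0 without any 1 naive WT mouse or WT CAC mouse 6. In *Cldn2*TG CAC against WT CAC 1, *Ret*, was lower, and 0 were without any 1 *Cldn2*TG CAC mouse or WT CAC mouse 5. No glial gene was called in either comparison.

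T cells, which also express *Thy1*, followed its order, with 6 genes that summed to 2.99 to 6.78 CPM in naive WT, 14.2 to 26.6 CPM in WT CAC and 3.75 to 7.24 CPM in *Cldn2*TG CAC mice. Of these, 5 of 6 rose in WT CAC against naive WT and 5 of 6 fell in *Cldn2*TG CAC against WT CAC. The first count was 1 without naive WT mouse 1, 0 without mouse 2 and 3 without WT CAC mouse 5 or 6. The second was 0 without *Cldn2*TG CAC mouse 8 or 9, 2 without mouse 7, 1 without WT CAC mouse 5 and 3 without mouse 6. Macrophages (6 genes) summed to 121 to 145, 123 to 265 and 88.3 to 108 CPM, with 4 genes higher in WT CAC and 4 lower in *Cldn2*TG CAC against WT CAC. The first count was 0 without naive WT mouse 1, 2 or 3, 2 without WT CAC mouse 5 or 6 and 6 without mouse 4. The second was 0 without *Cldn2*TG CAC mouse 8 or 9, 2 without WT CAC mouse 5 and 6 without mouse 4. In this sum every *Cldn2*TG CAC mouse also lay below every naive WT mouse. There 1 macrophage gene, *Cd14*, was called lower, and none was without *Cldn2*TG CAC mouse 8 or 9 or naive WT mouse 2 or 3. Lymphatic endothelium, which expresses *Pdpn*, summed over 5 genes to 18.4 to 26.7, 27.9 to 86.0 and 12.7 to 24.4 CPM, with *Prox1* alone called higher and then lower (2.18 ± 0.486, 45.1 ± 27.9 and 2.33 ± 0.162 CPM), while the median log2 fold changes of its 4 tested genes were 0.02 and -0.13. No lymphatic gene was called higher without naive WT mouse 2, or lower without *Cldn2*TG CAC mouse 8 or 9. Lymphoid tissue stroma (4 genes) summed to 2.61 to 9.55, 11.4 to 15.1 and 2.66 to 4.92 CPM and adipocytes (4 genes) to 4.63 to 29.9, 2.34 to 6.94 and 2.69 to 20.3 CPM. Of 3 tested lymphoid stroma genes, 2, *Cxcl13* and *Tnfsf11*, were lower in *Cldn2*TG CAC against WT CAC. That count was 0 without *Cldn2*TG CAC mouse 8 or 9 and 1 without mouse 7, and no adipocyte gene was called. Mesothelium (5 genes) summed to 7.99 to 14.7, 12.9 to 30.6 and 1.17 to 10.9 CPM, and its 1 called gene was *Msln*, higher in WT CAC than in naive WT (2.46, adjusted p = 0.0189) and lower in the transgenic group than in WT CAC (-3.46, adjusted p = 0.0312), while the median log2 fold changes of its tested genes were -1.16 and 0.86. No mesothelial gene was called higher without naive WT mouse 2 or 3, or lower without *Cldn2*TG CAC mouse 8 or 9 or WT CAC mouse 5 or 6. Genes at 0 in at least 1 mouse were *Higd1b* (pericyte), *Ccl21a*, *Ccl19*, *Wt1*, *Lrrn4*, *Plin1*, *Lep* and *Fabp7*. The 8 epithelial genes summed to 14300 to 16600, 13400 to 17500 and 14900 to 19700 CPM, with 1 call, *Krt8*, higher in *Cldn2*TG CAC than in naive WT mice, and no epithelial gene was called there without naive WT mouse 2 or 3 or *Cldn2*TG CAC mouse 8 or 9.

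**Figure D5:**
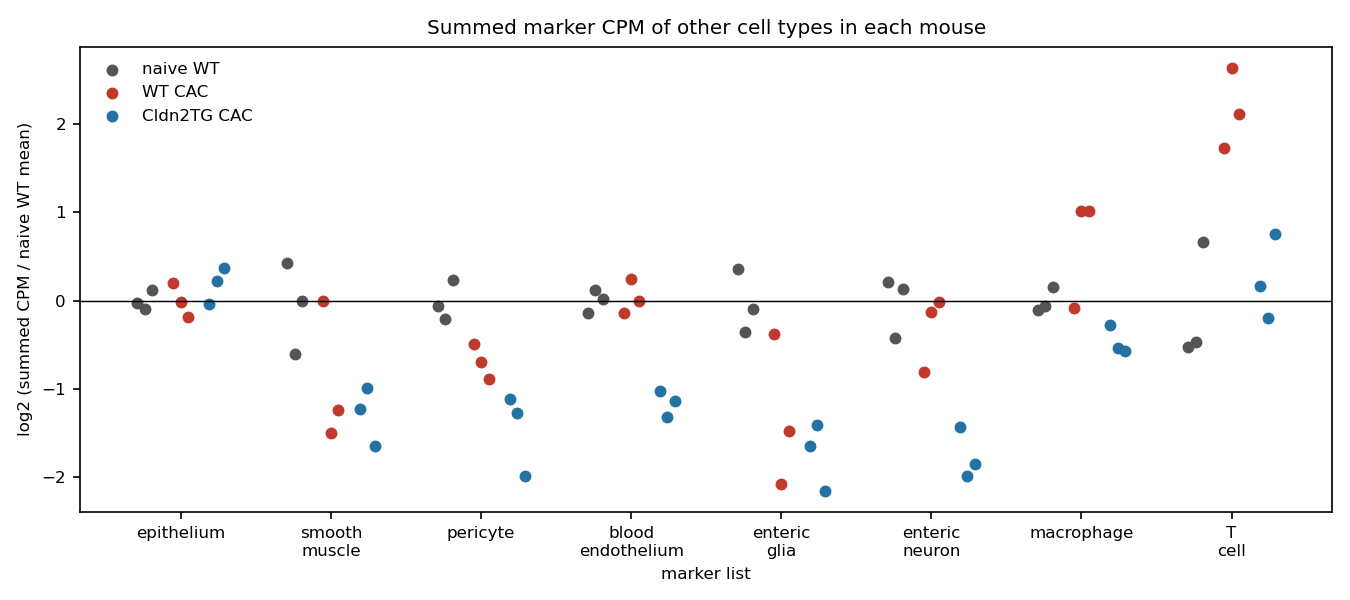
Summed CPM of marker genes in each mouse, as log2 of the ratio to the naive WT mean (vertical axis), for 8 cell types (horizontal axis); points are mice. *Cldn2*TG CAC mice (blue) lie below all naive WT mice (gray) for blood endothelium, smooth muscle, pericytes, glia, neurons and macrophages, and WT CAC mice (red) lie above both other groups for T cells.

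Genes whose log2 CPM over the 9 mice were most like those of *Dcn* and *Postn* were sought among 13916 genes with a mean of at least 1 CPM, as a description over mice that share groups and libraries. For *Dcn* they were *Abca5* (Pearson r 0.95), *Cpxm1* (0.94), *Ssc5d* (0.94), *Dhx38* (0.93) and *Mcts2* (0.92). For *Postn* they were *Pitpnm2* (0.97), *Foxf2* (0.96), *Ldb2* (0.96), *Arhgef25* (0.95) and *Adam23* (0.95). The mean of *Cpxm1* was 0.7, 3.64 and 1.11 CPM in the naive WT, WT CAC and transgenic groups, highest in WT CAC as *Dcn* was. The mean of *Foxf2* was 2.36, 2.83 and 0.758 CPM in the same order, lowest in *Cldn2*TG CAC as *Postn* was.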

How the data were processed

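Colon RNA was sequenced by the authors on a NovaSeq6000 in 2 lanes per library. The study's methods name TopHat2 for mapping, whereas the submitters' processing notes name HISAT2, both with featureCounts of the Subread package, and the notes give GRCm38; versions, annotation and strand setting were not given in the sources used here. The deposited values are whole-number counts of reads per gene, without normalization, in 18 columns for 9 mice. Gene lengths were also deposited. All columns were used, and symbols came from a table of gene identifiers and symbols for 47224 of 47729 identifiers. Without a stated strand setting, reads of overlapping and antisense genes cannot be told apart.

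Lanes differed by little more than counting noise (chi-square per degree of freedom 0.995 to 1.057 over genes with at least 20 counts) and were summed, and each mouse was 1 replicate. Labels do not say how mice were housed or grouped by batch. Replicate numbers are not shared between groups. Each comparison used the 6 mice of its groups in edgeR 4.0.16, run under R 4.3.3 (TMM, filterByExpr with a minimum count of 10 and a minimum total of 15, robust quasi-likelihood fit, two-sided test). P-values were adjusted by Benjamini-Hochberg over all genes tested, and a gene was called at an adjusted p under 0.05. All 10 genes passed the filter in each comparison. Standard errors and 95% intervals were derived from the test statistic. The biological coefficient of variation was 0.218 (WT CAC against naive WT), 0.217 (*Cldn2*TG CAC against WT CAC) and 0.149 (*Cldn2*TG CAC against naive WT). CPM per mouse used TMM factors over all 9 mice, and log2 CPM a prior count of 2. Intervals from a count of 0 cover counting error only.

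Alternatives were DESeq2 1.42.0, limma voom 3.58.1, RLE, upper-quartile and library-size scaling, other filters, a fit of all 9 mice, single lanes, a minimum size of 1 for log2 fold changes and omission of single mice. The pipeline was tested on simulated data. The 10 genes, the lists of related genes and markers, and the comparisons were chosen with earlier results of these data known. From each list the text names genes among the 2 with the highest mean CPM and up to 3 called genes with the largest change in each comparison, and marker genes at 0 in a mouse were named to complete counts. For *Dcn* and *Postn* the 5 genes with the highest correlation are named. Motifs and the promoters shown were chosen after the values were seen. Tables were made with pandas 2.3.3 and numpy 2.4.6 in Python 3.11.15, and figures with matplotlib 3.10.9.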

Additional observations from a re-analysis of the deposited data

How the results depend on the processing

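No paired analysis was possible because replicate numbers are not shared between the groups. In WT CAC against naive WT, where 2 genes were called, the count was 1 with library size only, beside 7.59% of all genes called higher, and 1 when calls also needed a log2 size of 1, beside 5.67%, and it ranged from 0 to 5 when single mice were left out. In *Cldn2*TG CAC against WT CAC, where 5 were called, DESeq2 called 9 and the fit of all 9 mice called 8, with 1 to 7 when single mice were left out. In *Cldn2*TG CAC against naive WT, where 4 were called, the range was 2 to 4 when single mice were left out and 3 to 5 under the other settings, with *Pdgfra* gained without a filter and *Tnc* lost with lane 1 only. The cause was not tested. A log2 fold change changed sign for some genes that were not called, given here with the lowest and highest value when single mice were left out. In WT CAC against naive WT these were *Tnc* (0.049 with limma voom, -0.289 to 0.278), *Sparc* (-0.016 with limma voom, -0.307 to 0.226), *Fap* (-0.037 to 0.412) and *Postn* (-0.033 to 0.264). In *Cldn2*TG CAC against WT CAC it was *Fap* (-0.383 to 0.059). In *Cldn2*TG CAC against naive WT these were *Thy1* (-0.115 with lane 1 only, -0.08 with library size only, -0.008 to 0.111), *Dcn* (-0.044 with library size only, -0.036 to 0.238) and *Fap* (-0.161 with lane 2 only, -0.091 with library size only, -0.112 to 0.216). The activated minus resting difference between *Cldn2*TG CAC and WT CAC was 0.306 and turned to -0.149 without WT CAC mouse 5 and to -0.068 without *Cldn2*TG CAC mouse 7. Across all alternatives 435 fold changes of the 10 genes kept direction and call, 31 lost a call, 22 gained one and 22 changed sign. Counts limit *Fap* most, at 18 to 47 reads per mouse.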
